A study of Mus musculus with 2 samples.

Results

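The insulin-like growth factor (IGF) axis was described here by 10 genes: the ligand genes Igf2 and Igf1, the receptor genes Igf1r, Insr and Igf2r, the adaptor genes Irs1, Irs2 and Grb10, and the noncoding RNA genes H19 and Airn. The genes were chosen by name, and all 10 were found by symbol with GENCODE M21 among the 47643 gene IDs of the count files. The cells were E14, a mouse embryonic stem cell line of 129/Ola origin, and carried a labelled knockout of both AGO1 and AGO2, genes of Argonaute proteins that carry out microRNA repression. The series held 2 polyA libraries of this single genotype, from cells kept with LIF in 15% serum on gelatine. They are numbered 1 and 2 in their titles and are called replicate 1 and replicate 2 here. No unmodified cells were analysed here, so no value measures an effect of the knockout, and whether separate cultures or clones lie behind the libraries is not in the labels. P-values below therefore set 1 library against the other, and a difference between the libraries may be technical.

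IGF1 and IGF2 are secreted ligands that signal through the IGF1 receptor and, for IGF2, also through the insulin receptor, tyrosine kinases that pass the signal to IRS adaptors, PI3 kinase and AKT and to the Ras-MAPK cascade. IGF2R is a receptor without kinase activity that carries IGF2 to lysosomes, and GRB10 is an adaptor that damps signalling from both kinase receptors. Several of these genes are imprinted in the mouse: Igf2 is expressed mainly from the paternal allele, H19, Igf2r and, in most tissues, Grb10 from the maternal allele, and Airn, an antisense transcript that silences Igf2r in cis, from the paternal allele. These counts do not separate alleles.

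Totals were 34798975 gene counts in replicate 1 and 29789560 in replicate 2. A count of 3, taken as the floor, equals 0.0862 and 0.101 CPM (counts scaled to a library of fixed size). Over 19078 genes with at least 10 counts the chi-square per degree of freedom between the libraries was 9.83, beyond sampling noise, and they were kept as 2 samples. The exact binomial test used below allows for sampling noise only and called 24.5% of these genes. A small p-value from it therefore does not show a difference beyond the general spread of the libraries. The targeted genes were both read: Ago1 had 70.8 and 141 CPM, Ago2 had 124 and 129 CPM. Sums over exons do not show an edited exon, so these levels check no label. All 7 embryonic stem cell markers were expressed, with Pou5f1 at 1421 and 1329 CPM. Of the marker lists for other cells, 3 of 8 fibroblast, 1 of 9 primitive endoderm, 1 of 7 trophoblast and 2 of 7 mesoderm genes reached 1 CPM in both libraries, and Col3a1, Lum, Afp, Ttr, Tpbpa and Prl3d1 had no count.

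Several regulatory sequences of the 10 genes can be set beside the values. RefSeq (GRCm38.p6) lists mature microRNAs inside both genes of the Igf2-H19 pair: miR-675 lies in an exon of H19 and miR-483 in an intron of Igf2. They are shown because these host transcripts differed most between the libraries. Capitals mark the seed, bases 2 to 8, which pairs with target transcripts, and no seed is shared by any of the 4.
mmu-miR-675-5p: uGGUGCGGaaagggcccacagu
mmu-miR-675-3p: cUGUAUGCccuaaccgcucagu
mmu-miR-483-5p: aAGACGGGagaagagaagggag
mmu-miR-483-3p: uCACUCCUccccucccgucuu
The libraries hold polyA RNA and do not measure mature microRNAs. Reads assigned to the annotated precursor genes were 5 and 5 for Mir675, and none in either library for Mir483. Mir675 shares 84 bases with the H19 exons on the same strand, so its reads cannot be told from those of H19.

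The annotated 3' UTRs of the 8 protein-coding members were searched on the transcript strand for the seed matches of let-7 (CTACCTC) and of the miR-290 cluster, the main microRNA group of these cells (AGCACTT). Both microRNA families act through Argonaute proteins. Their seeds are shown on a family member each.
mmu-let-7a-5p: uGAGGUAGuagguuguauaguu
mmu-miR-294-3p: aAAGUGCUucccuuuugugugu
A let-7 match was found in 5 of the 8 UTRs, 6 matches in all, against 9.04% of the longest UTRs of 20805 genes. Longer UTRs hold the match more often: 38.9% of 381 UTRs with a length near that of Igf1r (7267 bases) had one, and 9.68% of 3059 near that of Igf2r (1304 bases). The miR-290 match was found once, in Igf1r, against 14.7% of all UTRs. Of UTRs near each member's length, 14.3% (Igf2r) to 58.5% (Igf1r) had one. The matches are printed in capitals with their flanks, to show that the kinase receptors, Igf2r, Irs2 and Igf1 carry the same 7 letters.
Igf1r, let-7, first match: tcaaacatttatCTACCTCactct
Igf1r, let-7, second match: gccagagttcatCTACCTCtggga
Insr, let-7: tctcagtacagtCTACCTCagtgt
Igf2r, let-7: ctgctccgtgccCTACCTCatctc
Irs2, let-7: actaccacagtcCTACCTCagttc
Igf1, let-7: tatgtcatctacCTACCTCaaagg
Igf1r, miR-290 cluster: ttgtttcgatttAGCACTTcttac
No match in Igf2, Grb10 or Irs1 says only that these letters are not in those UTRs, and a match is not evidence of repression.

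For 8 of the 10 genes RefSeq start sites gave 12 promoter windows; H19 and Insr were not among them. The 250 bases before the start are shown for Grb10, the most abundant member, and for the antisense pair Igf2r and Airn, whose levels lay farthest apart within a locus, with every CG dinucleotide in capitals.
Grb10, chr11:12037421-12037670, minus strand: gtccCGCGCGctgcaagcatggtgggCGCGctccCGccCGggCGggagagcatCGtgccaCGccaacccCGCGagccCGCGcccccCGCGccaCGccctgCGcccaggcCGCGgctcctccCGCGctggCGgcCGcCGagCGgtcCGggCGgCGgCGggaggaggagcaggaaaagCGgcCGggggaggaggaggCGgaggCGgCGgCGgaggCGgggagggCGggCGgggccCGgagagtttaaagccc
Igf2r, chr17:12769707-12769956, minus strand: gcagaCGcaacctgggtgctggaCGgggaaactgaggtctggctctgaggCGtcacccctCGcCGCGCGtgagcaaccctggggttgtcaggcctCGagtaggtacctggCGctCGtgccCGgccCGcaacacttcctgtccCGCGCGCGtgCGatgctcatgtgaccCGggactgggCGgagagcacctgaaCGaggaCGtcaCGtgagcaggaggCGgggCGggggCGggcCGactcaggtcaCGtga
Airn, chr17:12741061-12741310, plus strand: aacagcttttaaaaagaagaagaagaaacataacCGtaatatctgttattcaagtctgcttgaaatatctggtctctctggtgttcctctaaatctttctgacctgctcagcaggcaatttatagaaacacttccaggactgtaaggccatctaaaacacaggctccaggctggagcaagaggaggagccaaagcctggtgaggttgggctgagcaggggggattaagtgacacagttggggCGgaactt
The Grb10 window held 40 CG dinucleotides, a number reached by 1.31% of the 32851 windows in the table, whose median was 6. Igf2r had 27 (reached by 8.56%) and Airn 2 (reached by 81.2%), and CG dinucleotides after each start were not counted. A high number did not go with a high level throughout: the window of Irs1, a gene below 1 CPM, had 28, and that of Irs2 had 34. A second Grb10 start had 8, and Igf1r had 42.

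Per length, the 10 genes spanned a range from 84.7 TPM for Grb10 to 0.0606 TPM for Airn (TPM, the same scaling after division by length, computed from the counts and the exon bases of each gene; the plot of levels by library shows both libraries). Grb10 stood above Igf2r, Igf2r above Irs2 and Igf1r, and these above Insr in both libraries. The ranges of Irs2 and Igf1r overlapped, as did those of Insr and Igf2 and of Igf2 and H19, so the order within these pairs was not larger than the spread. With the longest transcript as the length, Igf1r (7.55 TPM) passed Irs2 (5.59 TPM) and Airn (0.125 TPM) passed Igf1 (0.119 TPM). At least 1 CPM in both libraries was reached by 6 of the 10 genes, against 58.0% of protein-coding genes and 29.6% of all gene IDs, and H19, Igf1, Irs1 and Airn stayed below it in 1 or both. At 1 TPM the number was also 6, against 56.8% of protein-coding genes, but the set changed. H19 (1.97 and 1.01 TPM) came in and Igf2 (0.930 TPM in replicate 1) fell out.

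**Figure D1:**
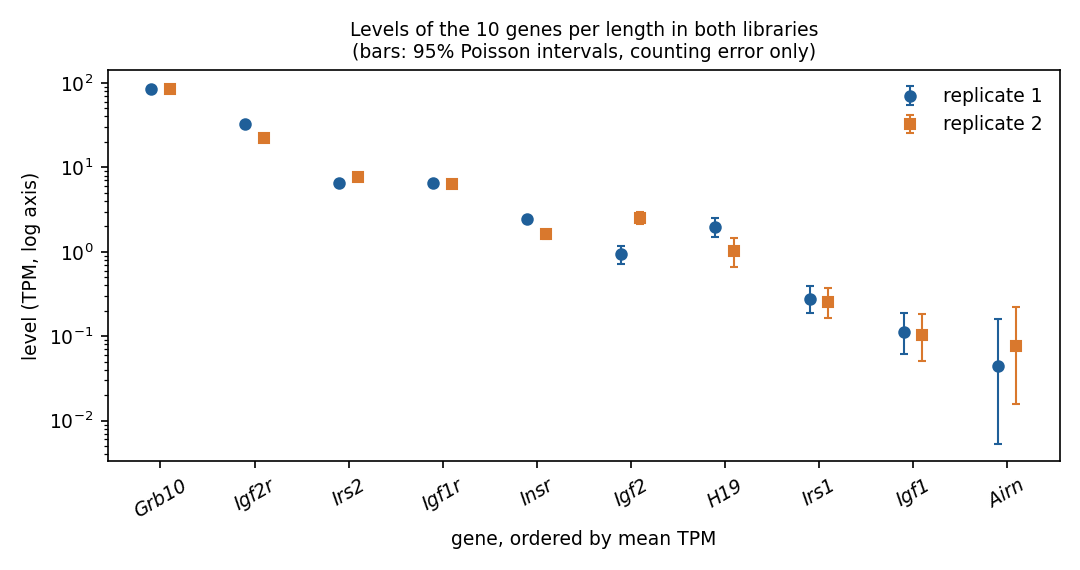
Levels of the 10 genes in TPM on a log axis, ordered by their mean, in replicate 1 (circles) and replicate 2 (squares), with 95% Poisson intervals that cover counting error only. Grb10 lies at 84.4 and 85.0 TPM and Airn at 0.0442 and 0.0770 TPM; Igf2 and H19 change places between the libraries.

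Igf2 (ENSMUSG00000048583; GRCm38 chromosome 7, 142650766 to 142666816, minus strand), the fetal growth ligand gene, had 67 counts in replicate 1 and 156 in replicate 2, or 1.93 CPM (95% exact Poisson interval 1.49 to 2.45) and 5.24 CPM (4.45 to 6.13). The libraries did not overlap: Igf2 was 2.72-fold higher in replicate 2, with 1.45 ± 0.21 (SE from counting) as its log2 ratio. The exact binomial test, two-sided and Benjamini-Hochberg adjusted over all genes tested, gave an adjusted p of 2.30e-11. The exact test of edgeR, which includes the spread of these libraries, gave 0.0730 and did not call it. Exons of a read-through gene of the annotation, Gm49394, cover 62.8% of the Igf2 exon bases; that gene is not listed in the count files, so how its reads were assigned is not known.

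Igf1 (ENSMUSG00000020053; chromosome 10, 87858265 to 87937042, plus strand), the ligand gene of postnatal growth, had 14 and 11 counts. Its levels of 0.402 CPM (0.220 to 0.675) and 0.369 CPM (0.184 to 0.661) overlapped and lay above the floor, and the log2 ratio of -0.10 ± 0.57 could not be told from 0 at this depth (adjusted p = 1 in the exact binomial test). The insulin genes were at or under the floor, with 0 and 3 counts for Ins2 and 0 and 1 for Ins1. Of the counts of both IGF ligands, Igf2 took 82.7% in replicate 1 (72.7 to 90.2%, 95% Clopper-Pearson, exact) and 93.4% in replicate 2 (88.5 to 96.7%). Intervals and floors cover counting error only.

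H19 (ENSMUSG00000000031; chromosome 7, 142575529 to 142578143, minus strand), a noncoding RNA gene 72.6 kb from Igf2 that shares its enhancers and imprinting control region, went the opposite way. It had 61 counts in replicate 1 and 27 in replicate 2, or 1.75 CPM (1.34 to 2.25) and 0.906 CPM (0.597 to 1.32). Its counting intervals lay just apart, with replicate 1 the higher. The log2 ratio of -0.93 ± 0.33 had a binomial (exact) adjusted p of 0.0192, and edgeR gave 1. Igf2 thus made up 52.3% of the counts of the pair in replicate 1 (43.3 to 61.2%) and 85.2% in replicate 2 (79.3 to 90.0%), and the intervals lay apart. Per kilobase of exon, the ratio of Igf2 to H19 was 0.472 in replicate 1 and 2.48 in replicate 2. By this measure H19 stood above Igf2 in replicate 1 and below it in replicate 2. The order in replicate 1 rests on the division by length, since the counts there were 67 for Igf2 and 61 for H19.

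Most markers of cells that express Igf2 and H19 more strongly stayed under 1 CPM in 1 or both libraries. Thy1 (22.8 and 21.2 TPM), Meox1 (7.13 and 7.34 TPM), Gata4 (4.09 and 3.05 TPM) and Eomes (3.61 and 3.09 TPM) stood above both Igf2 and H19 in each library, and the other markers did not. The summed level of the 9 primitive endoderm markers was 5.36 and 4.16 TPM, of the 7 trophoblast markers 5.19 and 4.29 TPM, of the 8 fibroblast markers 25.7 and 24.1 TPM, nearly all from Thy1, and of the 7 mesoderm markers 9.77 and 11.4 TPM. Of the 19 markers tested in these 4 lists the exact binomial test called Kdr (log2 ratio 0.66) and Col1a1 (0.59), both higher in replicate 2, against 24.5% of all genes. For both, edgeR's adjusted p was 1. Their part in the Igf2 and H19 difference was not tested. In bulk RNA, fewer expressing cells and less RNA per cell cannot be told apart.

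**Figure D2:**
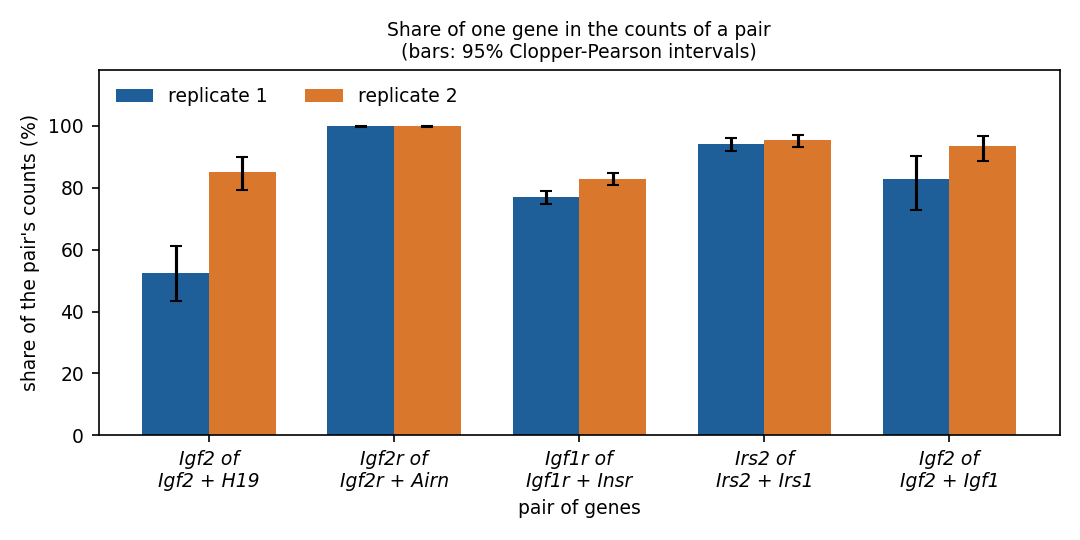
Share (%) of the first gene in the summed counts of 5 pairs, per library, with 95% Clopper-Pearson intervals as error bars. The Igf2 share of Igf2 and H19 stands at 52.3% and 85.2%, and the Igf1r share of Igf1r and Insr at 76.9% and 83.0%; the other intervals overlap between the libraries.

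Of the kinase receptors, Igf1r was the more abundant and held its level, while Insr differed. Igf1r (ENSMUSG00000005533; chromosome 7, 67952827 to 68233668, plus strand) had 1397 and 1169 counts, equal to 40.1 and 39.2 CPM (39.7 ± 0.638, SD, n = 2), with overlapping intervals. Its log2 ratio of -0.02 ± 0.06 was not called (adjusted p = 0.841, exact binomial test). Insr (ENSMUSG00000005534; chromosome 8, 3122061 to 3279617, minus strand), the insulin receptor gene, had 419 and 240 counts, equal to 12.04 CPM (10.9 to 13.3) and 8.06 CPM (7.07 to 9.14). It was 1.48-fold higher in replicate 1, at a log2 ratio of -0.57 ± 0.12, for which the binomial (exact) adjusted p was 1.12e-05 and that of edgeR 1. Igf1r took 76.9% of the counts of both receptors in replicate 1 (74.9 to 78.8%) and 83.0% in replicate 2 (80.9 to 84.9%). Per kilobase of exon it exceeded Insr 2.73-fold and 3.99-fold.

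Igf2r (ENSMUSG00000023830; chromosome 17, 12682406 to 12769664, minus strand), the clearance receptor gene, was the most abundant of the receptor genes per length. It had 3809 and 2263 counts, equal to 109 CPM (106 to 113) and 76.0 CPM (72.9 to 79.2). The libraries lay apart, with replicate 1 1.43-fold higher: the log2 ratio was -0.52 ± 0.04, the binomial (exact) adjusted p 1.66e-40 and that of edgeR 0.0862. In TPM, Igf2r stood at 32.5 and 22.5, against 6.61 and 6.43 for Igf1r and 0.930 and 2.52 for Igf2, so transcripts of the clearance receptor outnumbered those of its ligand in both libraries.

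Airn (ENSMUSG00000078247; chromosome 17, 12741311 to 12860136, plus strand) shares 28.4 kb of genomic span with Igf2r on the opposite strand, but no exon bases. It had 2 and 3 counts, at or under the floor in both libraries, and was the only member too low to be tested. Igf2r took 99.9% of the counts of the pair in both libraries. Airn is largely unspliced in the mouse, so reads in its introns would not enter a count over exons, and its level here covers only the annotated exons. Of the same cluster, Slc22a2 had no count and Slc22a3 had 0 and 2.

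Among the adaptors, Grb10 (ENSMUSG00000020176; chromosome 11, 11930508 to 12038683, minus strand) was the highest member and, with Igf1r, nearest to an equal level in both libraries. It had 9655 and 8370 counts, equal to 277 and 281 CPM (279 ± 2.49, SD, n = 2), and the log2 ratio of 0.03 ± 0.02 was not called (adjusted p = 0.420, exact binomial test). Its neighbour Ddc, imprinted in the developing heart, stood at 53.4 and 70.4 CPM and was higher in replicate 2 (log2 ratio 0.41 ± 0.05, exact binomial adjusted p = 5.26e-17, edgeR 0.637). Cobl, on the other side, differed by a log2 ratio of 0.12 ± 0.02 (adjusted p = 2.87e-06 in the exact binomial test).

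The insulin receptor substrates were uneven. Irs2 (ENSMUSG00000038894; chromosome 8, 10984681 to 11008458, minus strand) had 523 counts in each library, which at their depths are 15.0 CPM (13.8 to 16.4) and 17.6 CPM (16.1 to 19.1). These intervals overlapped slightly; the log2 ratio was 0.23 ± 0.09. The exact binomial adjusted p was 0.0394, or 0.0545 without the filter on low counts, and edgeR gave 1. Irs1 (ENSMUSG00000055980; chromosome 1, 82233101 to 82291416, minus strand) had 32 and 25 counts, equal to 0.920 and 0.839 CPM, which overlapped (log2 ratio -0.12 ± 0.38, adjusted p = 0.911, exact binomial test). Exons of an antisense gene, Gm9747, cover 30.9% of Irs1 and had no count. Per kilobase of exon, Irs2 exceeded Irs1 23.6-fold and 30.3-fold.

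Of the 9 members tested, the exact binomial test called 2 higher (Igf2 and Irs2) and 3 lower (H19, Igf2r and Insr) in replicate 2, with a median log2 ratio of -0.10. Over all 19078 genes tested it called 24.5%, 12.4% higher and 12.1% lower, with a median of -0.0004, and among genes with at least 100 counts it called 32.3%. Of the 6 members with that depth, 4 were called. The members' share lies above this background, but on so few genes it is a description only. edgeR's exact test called none of the 9 and 0.44% of all genes (0.115% higher, 0.325% lower); at an unadjusted p under 0.05 it passed Igf2, Igf2r and Insr, against 870 of all 19078 genes. Log2 ratios leaned on GC content across genes (Spearman rho -0.19, genes not being independent replicates). With the trend on GC content and length removed, Igf2 stood at 1.53, H19 at -0.86, Igf2r at -0.49, Insr at -0.60 and Irs2 at 0.32, and all 5 were still called by the exact binomial test (21.4% of all genes were, 11.1% higher and 10.3% lower).

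**Figure D3:**
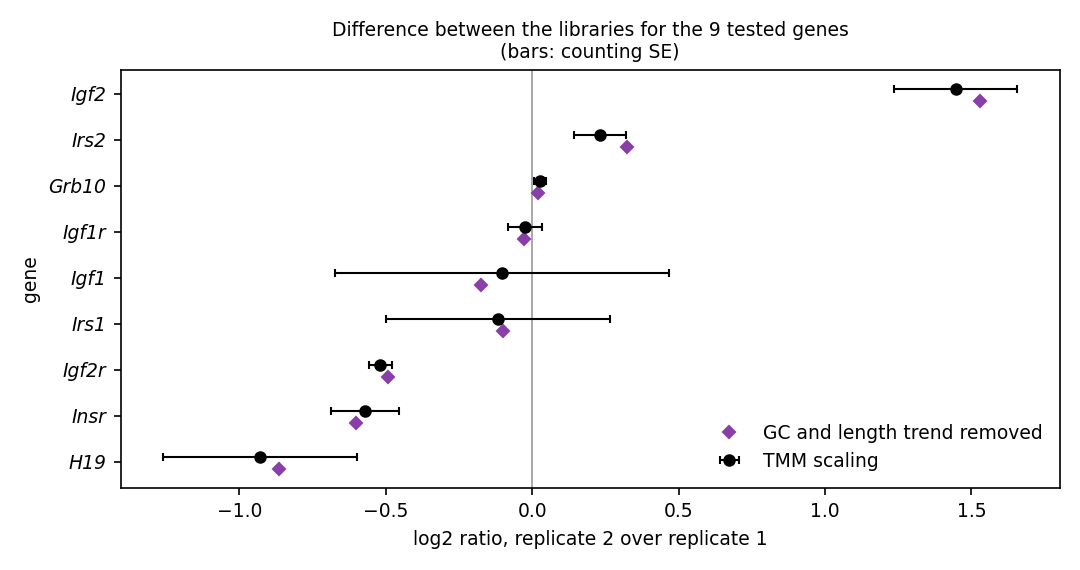
Log2 ratio of replicate 2 over replicate 1 for the 9 tested genes, with counting SE as bars (black circles), and after removal of a trend on GC content and length (diamonds). Igf2 lies at 1.45 and H19 at -0.93, and removing the trend moves no called gene across 0.

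Within 1000 kb of the start of H19, 31 genes were tested, and the exact binomial test called 6 higher and 3 lower in replicate 2, the 2 members included. This share is close to the 24.5% called over all genes. On the H19 side away from Igf2 none of the tested genes was called, among them Mrpl23 (14.5 and 15.8 CPM) and, near the threshold, Ctsd (197 and 187 CPM, exact binomial adjusted p = 0.0523). Ascl2, a trophoblast factor gene of the maternal allele, was lower (4.89 and 3.29 CPM, log2 ratio -0.56 ± 0.18, exact binomial adjusted p = 0.0118). Farther along, the noncoding RNA Kcnq1ot1 was lower (-0.43 ± 0.08), while the maternally expressed growth inhibitor genes Cdkn1c (5.55 and 17.3 CPM, 1.64 ± 0.12) and Phlda2 (31.6 and 66.7 CPM, 1.09 ± 0.05) were higher. Their adjusted p in edgeR's exact test was 3.20e-06 and 4.63e-07, and they were the only 2 of the 31 genes it called. Of the 14 tested genes in the list of neighbours of the 3 imprinted loci, the exact binomial test called 7 higher and 2 lower. Over all genes it called 12.4% higher and 12.1% lower. The median log2 ratio of the 14 genes was 0.16.

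**Figure D4:**
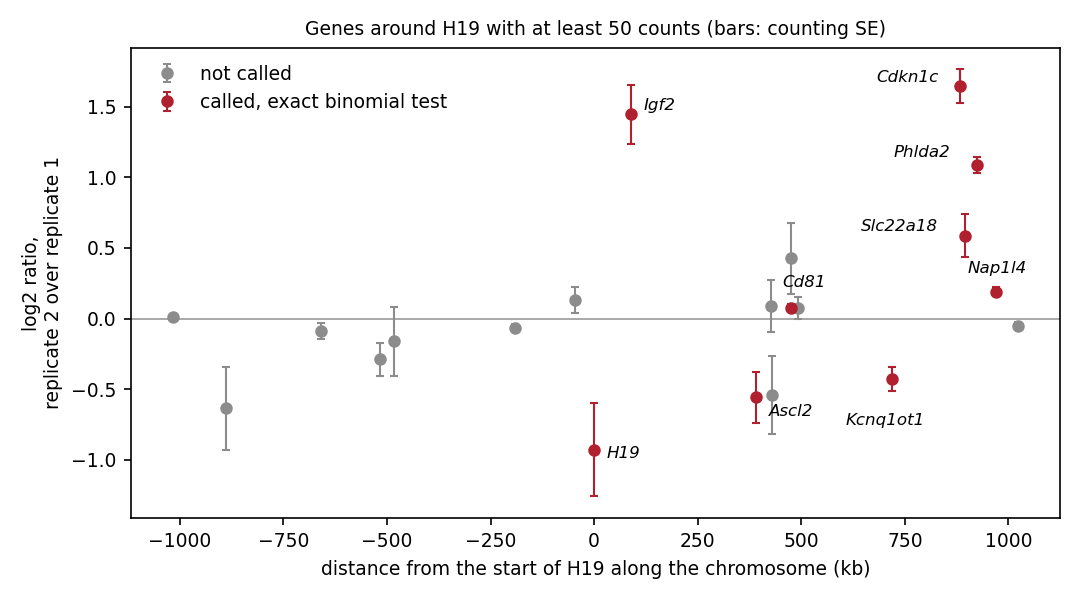
Log2 ratio of replicate 2 over replicate 1 with counting SE against the distance in kb from the start of H19, for genes with at least 50 counts; red points were called by the exact binomial test. H19 lies at -0.93 beside Igf2 at 1.45, and Cdkn1c and Phlda2 at 1.64 and 1.09 near the far end.

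The wider pathway, imprint control and the neighbours of the imprinted members were covered by 7 lists with 100 genes. Of these genes, 80 reached 1 CPM in both libraries. Of the 89 tested, the exact binomial test called 21 higher and 16 lower in replicate 2, with a median log2 ratio of 0.01. This was 41.6%, against 24.5% of all genes and 32.3% of those with at least 100 counts. By edgeR's exact test Igf2bp3, Cdkn1c and Phlda2 were called. Cdkn1c and Phlda2 belong to the list of neighbours, which also gave 9 of the 37 exact binomial calls. IGF binding proteins and their regulators were uneven: 8 of 13 reached 1 CPM. Igfbp2, which binds IGF2 outside the cell, led with 329 and 292 TPM, followed by the protease gene Htra1 (31.2 and 38.8 TPM) and Stc2, whose product inhibits the protease PAPP-A (23.7 and 21.6 TPM). Igfbp1 and Pappa had no count. In this list the exact binomial test called Htra1 and Igfbp7 higher and Igfbp2 and Igfbp4 lower in replicate 2, with log2 ratios of 0.33, 0.56, -0.15 and -0.65. These were 4 of the 10 tested, against 24.5% of all genes, and edgeR's exact test called none of them.

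Kin of insulin and of the adaptors had 5 of 10 genes at 1 CPM. Grb7 (79.8 and 66.6 TPM), of the Grb10 family, and the adaptor gene Sh2b1 (42.0 and 37.3 TPM) were both called lower in replicate 2 by the exact binomial test (log2 ratios -0.24 and -0.15). With the GC and length trend removed Sh2b1 stood at -0.06 and was no longer called (exact binomial adjusted p = 0.401), and edgeR gave both genes an adjusted p of 1. Insl3, a hormone gene of the insulin family, stood at 8.46 ± 0.650 TPM (SD, n = 2). All 6 genes of the list of RNA-binding proteins linked to Igf2 mRNA and to let-7 were expressed. Igf2bp1 (104 ± 3.73 TPM, SD, n = 2), the let-7 processing inhibitor Lin28a (94.4 and 97.9 TPM) and Igf2bp2 (78.1 and 74.5 TPM) led, and Lin28b was the lowest by its mean (14.4 and 15.3 TPM). Igf2bp3 differed most, with 3238 and 1295 counts: it was 2.13-fold higher in replicate 1 (log2 ratio -1.09 ± 0.05), and edgeR's exact test gave it an adjusted p of 2.24e-08.

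Downstream of the receptors nearly every gene was present. All 14 adaptor and Ras-MAPK genes and 28 of 29 PI3K-AKT-mTOR genes reached 1 CPM, the exception being Pik3cg, with no count. Mapk3 (203 and 174 TPM) and Gab1 (138 and 156 TPM) led the first list, and Hras (24.1 and 23.9 TPM) and Sos2 (2.64 and 3.41 TPM) were its lowest. The translational repressor gene Eif4ebp1 (269 and 256 TPM), the lipid phosphatase gene Inpp5d (85.5 and 77.1 TPM) and Gsk3a (78.7 and 74.7 TPM) led the second, where Pik3r3 (5.20 and 5.23 TPM) was the lowest with counts. The exact binomial test called 5 higher and 2 lower in replicate 2 in the first list and 4 and 4 in the second. These were 7 of 14 and 8 of 28 tested, against 24.5% of all genes and 32.3% of those with at least 100 counts. Median log2 ratios of the tested genes in the 2 lists were 0.03 and 0.02. None of these genes was called by edgeR, and over all 7 lists 7 of the 89 tested genes had an unadjusted p under 0.05 there, against 870 of all 19078. With the GC and length trend removed, the first list had 4 genes called in place of 7, and the second 9 in place of 8. Over all genes 21.4% were called in that setting.

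The list for imprint control had 8 of 9 genes at 1 CPM in both libraries. Of these 9 genes, the exact binomial test called 2 higher and 3 lower in replicate 2, against 24.5% of all genes in either direction. With the GC and length trend removed it called 3 higher and 1 lower, against 11.1% higher and 10.3% lower over all genes. Trim28 went from -0.05 to 0.04, Uhrf1 was called higher (0.06), and Dnmt1 and Dppa3 were no longer called. Trim28 (969 and 926 TPM), Uhrf1 (375 and 371 TPM) and the imprint-binding zinc finger gene Zfp57 (223 and 225 TPM) were the highest. Ctcf, whose product binds the control region between Igf2 and H19, stood at 71.7 and 77.0 TPM, with a log2 ratio of 0.12. The exact binomial test called it higher in replicate 2 (adjusted p = 0.00156), and edgeR's exact test did not (unadjusted p = 0.410). Its testis paralog Ctcfl had 142 and 49 counts and was lower by -1.29 ± 0.24 (binomial, exact, adjusted p = 1.90e-07; edgeR 0.295). Plagl1, itself an imprinted factor gene of the growth network, had 41 and 24 counts. It was the gene of the list that did not reach 1 CPM in both libraries (1.18 and 0.806 CPM).

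**Figure D5:**
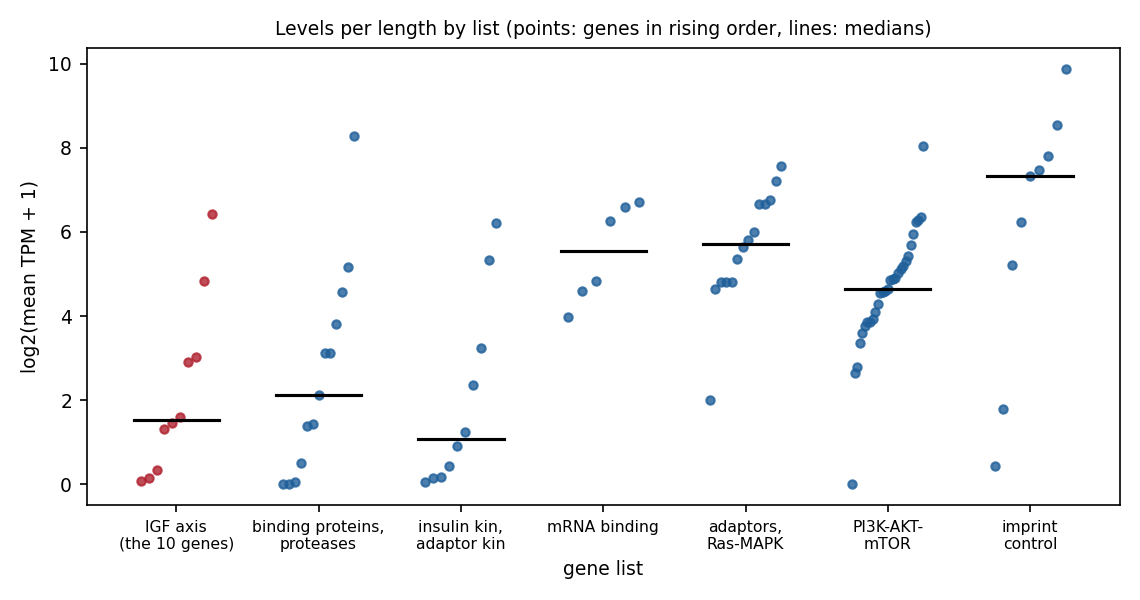
Log2(mean TPM + 1) of each gene in the 10-gene axis (red) and 6 lists of the wider pathway and imprint control (blue), genes in rising order within a list, lines marking medians. Grb10 tops the axis at 84.7 TPM, while Trim28 (947 TPM) and Igfbp2 (311 TPM) top their lists.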

How the data were processed

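The series profiled polyA RNA in 2 libraries of 1 genotype. Per the labels' protocols, the kit was TruSeq and the protocol reverse-stranded; STAR 2.4.2a and mm10 (GRCm38) were used, per the submitters' processing notes. The deposited files hold raw counts, whole numbers per Ensembl gene. Which tool, strand setting and annotation made them is not stated there, so overlapping and antisense genes may share reads.

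CPM used the library total; TPM used the exon bases per gene of GENCODE M21 (47224 of 47643 IDs named). The libraries were set against each other per gene by an exact binomial test (two-sided, SciPy 1.17.1) at TMM-scaled sizes (1.003 and 0.997). P-values were Benjamini-Hochberg adjusted over all genes of 10 counts or more, 0.05 was the threshold, and 0.5 was added to counts for log2 ratios. edgeR 4.0.16's exact test, with a dispersion estimated from both libraries as 1 group, was the alternative. With 1 library a side the quasi-likelihood test and DESeq2's test could not be fitted; DESeq2 1.42.0 gave size factors only. The tests were run on simulated data first. The members and lists were chosen with earlier results of these data known. Of each list the 3 highest and 2 lowest in TPM and those called by edgeR's exact test were to be named, of which 1 is not reported here; the marker lists' named genes are given in part, and other named genes were chosen after their values were seen, as were the sequence searches and the window around H19. A likeness of pattern across samples cannot be measured over 2 libraries.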

Additional observations from a re-analysis of the deposited data

How the results depend on the processing

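The count of 5 called members stayed at 5 with DESeq2 size factors, with library totals and with the GC and length trend removed. It was 4 with no filter on low counts, which lost Irs2, and 4 among genes with at least 100 counts, which left out H19. With edgeR's exact test it was 0 of members and 3 of the genes of the 7 lists, against 37 in the exact binomial test. The other settings gave 34 to 38 genes of the 7 lists. The expressed members numbered 5 to 8 and the expressed genes of the 7 lists 70 to 85 over all thresholds and units tried. Leaving out 1 library gave 6 to 7 expressed members and 80 to 83 genes of the 7 lists. Leaving out 1 library, per kilobase of exon, moved the Igf2 share of Igf2 and H19 from 32.1 to 71.3%, that of Igf1r and Insr from 73.2 to 79.95%, that of Igf2 and Igf1 from 89.2 to 96.1%, that of Irs2 and Irs1 from 95.9 to 96.8% and that of Igf2r and Airn from 99.7 to 99.9%. On raw counts the mean share was 94.8% for Irs2 and 99.9% for Igf2r. TPM on the longest transcript, added after seeing the data, moved 6 of the 10 levels by more than the spread between the libraries. The log2 ratios of the 9 tested members kept their sign under all 4 alternatives tried for them. No paired analysis was possible because the series holds a single group. Depth limits Airn, Igf1 and Irs1, whose counts cannot show moderate differences.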
